A study of Mus musculus with 18 samples.

Results

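The glutathione S-transferase (GST) and UDP-glucuronosyltransferase (UGT) genes of the mouse liver were taken by their symbols on the array: every gene whose symbol starts with Gsta, Gstm, Gstp, Gstt, Gstk, Gsto, Mgst, Ugt1a, Ugt2 or Ugt3 and that has a probe set naming it alone. There were 32 such genes among 18193 genes with a probe set of their own, 22 of them GST and 10 UGT genes. Each was read from its probe set with the highest mean signal. The GST genes fall into the alpha (Gsta), mu (Gstm), pi (Gstp), theta (Gstt), kappa (Gstk), omega (Gsto) and microsomal (Mgst) families, and the UGT genes into Ugt2a, Ugt2b and Ugt3a. No Ugt1a gene had a probe set of its own.

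GST enzymes join the tripeptide glutathione to reactive electrophiles such as epoxides and products of lipid peroxidation, and UGT enzymes in the endoplasmic reticulum join glucuronic acid, taken from UDP-glucuronic acid, to bilirubin, steroids, bile acids and drugs. Both steps make compounds soluble so that hepatocytes can export them to bile or blood. In rodent liver both families are abundant, and the levels of several members are known to depend on age, sex, hormones and the transcription factor NRF2.

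Liver RNA came from offspring of the outbred mouse line DUK, a cross of 4 outbred and 4 inbred lines, and was hybridised to 18 Affymetrix Mouse Genome 430 2.0 arrays in 6 groups of 3. Dams ate isoenergetic diets with 40% (high protein, HP) or 20% protein by weight. The groups at postnatal day 150 were HP pregnancy (40% in pregnancy and 20% in lactation), HP lactation (20% in pregnancy and 40% in lactation) and control (20% in both), and the same 3 groups were sampled at day 21. The RNA on an array was a pool over animals. The labels disagree on the size of a pool and do not say whether an animal entered more than 1, so spread between pools is all that the p-values measure, and they may be too small for a statement about animals or dams. Sex is not given in the sources used here.

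The 3 arrays per group, rather than a read depth, set the precision here. All arrays had been scaled to a trimmed mean of about 500, and the median correlation of log2 signals was 0.976 between arrays of a group, 0.973 between groups of a day and 0.942 between days. The ratio of the 3' to the 5' probe set of Gapdh, a control for RNA integrity and labelling, was 1.30 to 1.80 on the day 150 arrays, against 0.821 to 0.993 on the day 21 arrays. The same ratio for Actb differed more, at no less than 4.06 on any day 150 array and no more than 3.15 on any day 21 array. Neither ratio overlapped between days, so array quality and age cannot be told apart in any comparison of days. The female X inactivation RNA Xist gave signals of 5080 in HP lactation day 150 replicate 4 and 2026 in control day 21 replicate 2, and at most 35.3 on the same probe set elsewhere. In the same order, these 2 arrays gave 1990.4 and 1431.2 for the Y chromosome gene Eif2s3y, against at least 2002.9 elsewhere. For the Y gene Uty they gave 212.4 and 213.8, against at least 255.2 elsewhere. For the Y gene Kdm5d they gave 393 and 198.5, against at least 360 elsewhere, so the first of them was not set apart on this gene. The 2 pools thus held Y chromosome transcripts beside Xist and cannot be read as all female. The other arrays had Y chromosome signal with little Xist. In that control array 15 of the 19 tested GST genes had the highest signal of the 3 control arrays of day 21 (median 0.42 above the mean of the other 2 on the log2 scale), and 3 of 10 UGT genes did. In HP lactation day 150 replicate 4 the highest of 3 signals was seen for 5 of 19 GST genes and 4 of 10 UGT genes. All 7 hepatocyte markers listed for the array, such as Alb and Ttr, were above the filter, with summed signals of 166459 to 328933 over all arrays. So were the 8 macrophage, 7 endothelial and 7 stellate cell markers. Of the 5 bile duct, 5 lymphocyte and 5 erythroid markers on the array, 2, 1 and 2 were. In bulk tissue, fewer cells of a type and less RNA per cell cannot be told apart.

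Most transferase genes gave bright signals. The signal is the linear MAS5 intensity, and a group mean is the antilog of the group's mean log2 signal. Of the 32 genes, 29 passed a filter that kept probe sets with a mean signal of at least 57.5, and 17 of the 29 lay in the top 10% of the 11018 genes tested. Signals of different probe sets do not rank transcript amounts, so each gene's level is given only for reference. The member with the highest signal was Mgst1, with a mean of 33977, a microsomal GST of the endoplasmic reticulum and outer mitochondrial membrane. Its signals were 30562, 36189 and 37002 after HP pregnancy, 49726, 31061 and 30184 after HP lactation and 32135, 41595 and 41787 in control at day 150, against 31179, 27371 and 31139.9 after HP pregnancy, 29204, 33764 and 26580 after HP lactation and 37379, 37324 and 35179 in control at day 21. Gstp1, the pi class enzyme, had signals of 30585, 32781 and 34537 after HP pregnancy, 44588, 30092 and 29485 after HP lactation and 32060.1, 40131 and 41616 in control at day 150, against 27513, 24960.3 and 29033 after HP pregnancy, 23693, 31444 and 23188 after HP lactation and 33453, 37610.4 and 31879 in control at day 21. The 3 arrays of each HP group at day 21 lay below the 3 control arrays for both genes, while at day 150 the diets overlapped. Both HP groups were set against the same control arrays. At day 21 the arrays did not overlap for 18.2% of all genes after HP pregnancy and 16.1% after HP lactation. A further, dim Mgst1 probe set (mean 67.2) went the other way at day 21. Its log2 changes against control were 0.55 after HP pregnancy and 0.36 after HP lactation (SE 0.41).

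The other families had their own bright members. Mean signals were 27737 for Ugt2b5, 20331 for Ugt2b36, 19654 for Gsta3 and 14728 for Gstm1. Among the smaller families they were 13364 for Ugt3a2, 10316 for Gstt1, 8915 for Gstk1, 6331 for Gsto1 and 5797 for Ugt2a3. Ugt2b38 was the dimmest tested member, with a mean of 81.3. The microsomal gene Mgst2, the omega gene Gsto2 and the theta gene Gstt4 did not pass the filter and were not tested. Over the 18 arrays Mgst2 ran from 18.2 to 158, Gsto2 from 8.4 to 80.4 and Gstt4 from 2.4 to 30.1.

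The members also share their places in the genome. In the RefSeq annotation (GRCm38.p6) the 7 Gstm genes follow each other on chromosome 3 in the order Gstm5, Gstm7, Gstm6, Gstm3, Gstm2, Gstm1 and Gstm4. The 8 Ugt2 genes lie on chromosome 5 in the order Ugt2b34, Ugt2b1, Ugt2b35, Ugt2b36, Ugt2b5, Ugt2b37, Ugt2a3 and Ugt2b38, and Ugt3a1 and Ugt3a2 are neighbours on chromosome 15. Neighbouring genes of one family are close in sequence, and whether a probe set also bound a relative's transcript was not tested.

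Promoter sequence was read for every member with a window, and the windows of 4 genes called with age, each with 1 sign of change in all 3 diets, are shown. RefSeq (GRCm38.p6) promoter windows, from 250 bases before to 50 after the start site, were found for 29 of the 32 genes (not for Ugt3a2, Gstt2 and Gsta4). Some genes had more than 1 window, with 37 windows in all. A gene counts as holding a motif if any of its windows did, while the share of all windows counts each window singly. Genes with several windows thus had more places for a match, and the 2 kinds of share are not alike. Of the 4 motifs searched on both strands, 2 are marked in them. One is GTTAAT (or ATTAAC), which is part of the site of the liver factor HNF1. It stood in the windows of 2 of 9 UGT genes (22.2%) and 1 of 20 GST genes (5%), beside 7.1% of all 32817 windows. The GST gene was Gsta3, whose window further below keeps these letters in lower case. Ugt3a1 and Ugt2a3 were the 2 UGT genes, shown here with these letters in capitals.
Ugt3a1 (chr15:9279579-9279878, plus strand): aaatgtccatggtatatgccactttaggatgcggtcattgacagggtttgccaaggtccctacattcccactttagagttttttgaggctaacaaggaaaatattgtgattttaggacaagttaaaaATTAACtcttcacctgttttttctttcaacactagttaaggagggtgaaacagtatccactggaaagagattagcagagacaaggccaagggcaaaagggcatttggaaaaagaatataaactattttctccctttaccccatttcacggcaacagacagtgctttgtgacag
Ugt2a3 (chr5:87337146-87337445, minus strand): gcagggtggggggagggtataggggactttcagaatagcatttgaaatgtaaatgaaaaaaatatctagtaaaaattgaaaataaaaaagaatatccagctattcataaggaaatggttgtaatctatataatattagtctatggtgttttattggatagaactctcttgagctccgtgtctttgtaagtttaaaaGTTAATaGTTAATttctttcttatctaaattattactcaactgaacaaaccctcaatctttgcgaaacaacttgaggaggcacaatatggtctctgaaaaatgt
The other is TGACNNNGC (or GCNNNGTCA), the core of the antioxidant response element that NRF2 binds. It stood in the windows of 4 of 20 GST genes (20%), namely Gsta3, Gstm5, Gstm7 and Mgst1, and of 0 of 9 UGT genes, beside 12.4% of all windows. Gsta3 and Gstm7 both fell with age after HP pregnancy on the probe sets read, but a further probe set of each gave 0.035 and 0.27. Gstm7 also has a window without the core. The windows of the 2 genes that hold it are shown, with the core in capitals.
Gsta3 (chr1:21240335-21240634, plus strand): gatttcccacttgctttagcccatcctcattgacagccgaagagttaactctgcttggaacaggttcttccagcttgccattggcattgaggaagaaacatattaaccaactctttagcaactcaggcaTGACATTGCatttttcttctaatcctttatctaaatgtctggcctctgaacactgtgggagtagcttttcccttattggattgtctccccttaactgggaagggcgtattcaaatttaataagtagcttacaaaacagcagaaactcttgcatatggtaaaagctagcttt
Gstm7 (chr3:107931565-107931864, minus strand): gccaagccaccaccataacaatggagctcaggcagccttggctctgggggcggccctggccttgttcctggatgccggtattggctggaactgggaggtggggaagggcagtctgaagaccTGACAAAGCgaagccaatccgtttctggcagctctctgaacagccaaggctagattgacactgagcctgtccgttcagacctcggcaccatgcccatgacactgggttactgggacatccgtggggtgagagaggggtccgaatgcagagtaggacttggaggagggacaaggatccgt
The XRE core GCGTG (or CACGC) of the dioxin receptor was held by 6 of 20 GST genes (30%) and 0 of 9 UGT genes, beside 32.4% of all windows. TTCNNNGAA, the site of STAT5, was held by 3 of 20 GST genes (15%) and 0 of 9 UGT genes, beside 8.29%. These matches describe the letters of the windows and were not tested against the signals.

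The day comparison asks how the liver of the adult offspring differed from that of weanlings within each maternal diet. Every one of the 10 tested UGT genes had a higher mean signal at day 150 than at day 21 in each of the 3 diets. Ugt2b38 is among them and in the counts and medians that follow, though it passed the filter only through its day 150 arrays. The limma test (adjusted p under 0.05 over 11018 genes) called 5 of them higher after HP pregnancy, 8 after HP lactation and 4 in control. The UGT medians of the log2 change were 0.63, 1.03 and 0.61, where the medians of all tested genes were 0.022, 0.025 and 0.023. Over all 29 members, 13 were called after HP pregnancy (44.8%, against 23.6% of all genes tested), 13 after HP lactation (44.8%, against 25.7%) and 5 in control (17.2%, against 17.8%). Genes as bright as most members were called more often as well: in the top 10% by signal the shares were 28.9%, 32.9% and 21.3%. Of all genes tested, 12.1%, 14.1% and 9.7% were called higher at day 150 in the 3 diets.

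In all 3 diets, 5 members were called: Ugt3a1, Ugt2a3, Ugt2b1 and Ugt2b38, which rose, and Gstm3, which fell. Ugt2b38 passed the filter only through its day 150 arrays and had to differ between days, so its calls are no support for a rise. The 3 diets share no arrays in these comparisons. Without adjustment, p was under 0.05 for 19 members after HP pregnancy, 20 after HP lactation and 11 in control (36.1%, 37.6% and 31.2% of all genes). The 3 arrays of day 150 and the 3 of day 21 did not overlap for 24, 15 and 14 members (43.9%, 37.2% and 35.2% of all genes). A call in 1 diet and not in another does not show a difference between the diets. Of the 29 members, 19 were called in at least 1 diet, and 27 had the same sign of change in all 3, the exceptions being Gstt1 and Gstt3. How many of all genes were called in all 3 diets, in at least 1, or kept their sign was not counted. These counts are therefore not read as a trait of the members.

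**Figure D1:**
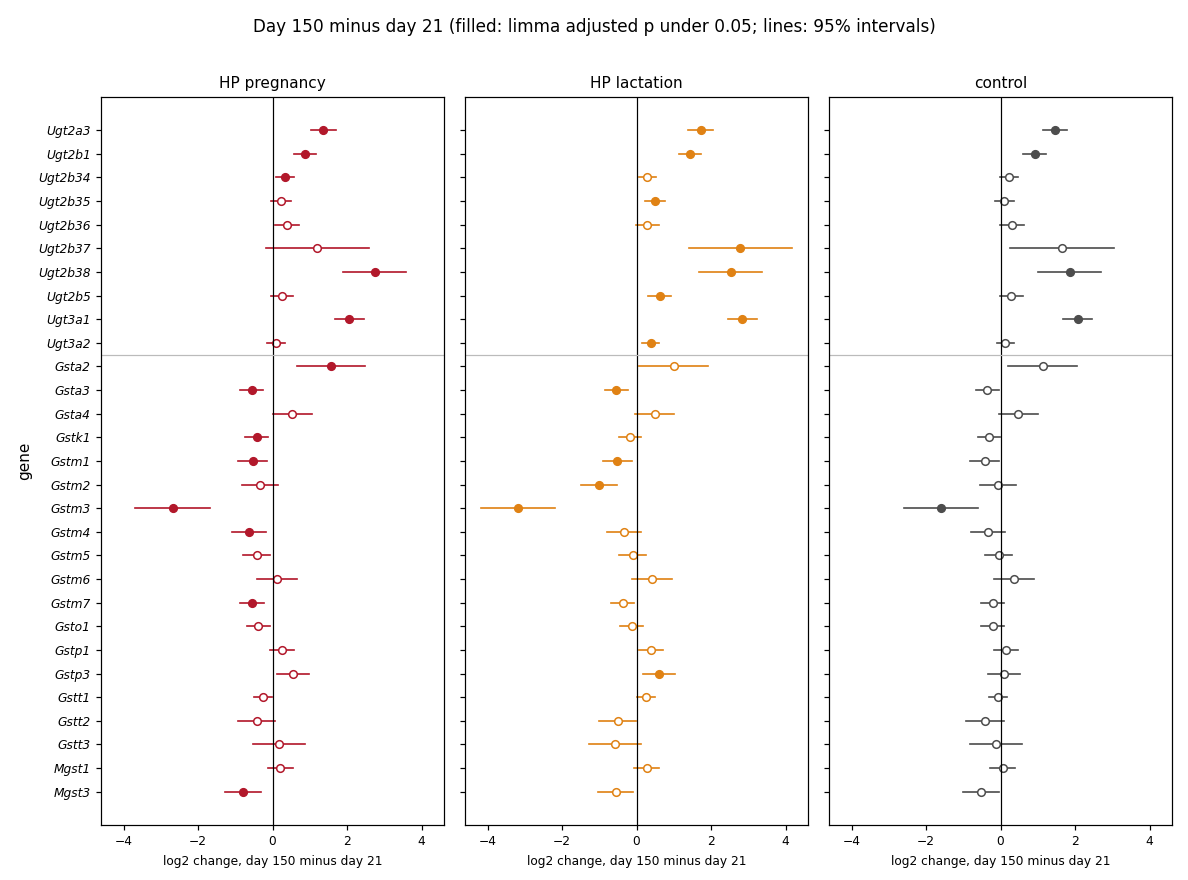
Log2 change of each of the 29 tested genes, day 150 minus day 21, for HP pregnancy, HP lactation and control from left to right (points, with 95% intervals as lines; filled points had a limma adjusted p under 0.05). All 10 UGT genes, above the grey line, lie right of 0 in each panel, and Gstm3 lies farthest left. Ugt2b38, among the 10, passed the filter only through its day 150 arrays.

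Ugt3a1 had the lowest adjusted p of the 29 members in each diet. Its human relative uses UDP-N-acetylglucosamine as sugar donor instead of UDP-glucuronic acid. The Ugt3a1 signals were 5242, 4396 and 4143 after HP pregnancy, 3001, 3414 and 4404 after HP lactation and 3979.7, 4204 and 3007 in control at day 150, against 1038, 1174 and 1079.8 after HP pregnancy, 501, 626 and 389 after HP lactation and 716, 1037 and 902 in control at day 21. In each diet the lowest day 150 array was above the highest day 21 array. On the log2 scale the change was 2.06 after HP pregnancy, 2.84 after HP lactation and 2.08 in control (SE 0.19 for each), with limma adjusted p of 6.1e-07, 7.19e-09 and 5.74e-07. A further Ugt3a1 probe set, with a mean signal of 1475, gave 1.67, 2.37 and 1.87.

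Ugt2a3, whose human counterpart conjugates bile acids, had signals of 9657, 11254 and 11819 after HP pregnancy, 7381, 8644 and 11206 after HP lactation and 8865, 10696 and 9575 in control at day 150, against 4853, 4103 and 3782 after HP pregnancy, 2269, 3115 and 2827 after HP lactation and 3888, 3101 and 3616 in control at day 21. Again no day 150 array overlapped with a day 21 array of its diet. The Ugt2a3 changes were 1.36, 1.72 and 1.46 after HP pregnancy, after HP lactation and in control (SE 0.16; limma adjusted p = 8.27e-06, 3.79e-07 and 4.94e-06). Ugt2b1, a member of the UGT2B group that conjugates steroids and drugs, had signals of 28494, 31154 and 28986 after HP pregnancy, 30189.8, 25570.1 and 25236 after HP lactation and 22276, 31784 and 31707 in control at day 150, against 16256, 15409.5 and 16713 after HP pregnancy, 8121, 12244 and 9853 after HP lactation and 15604, 14779.8 and 14559.9 in control at day 21. The days were separate in each diet, with the lowest day 21 signals after HP lactation. Its changes were 0.87, 1.44 and 0.91 (SE 0.14; limma adjusted p = 3e-04, 1.19e-06 and 0.00028).

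The dim members of the chromosome 5 cluster, Ugt2b38 and Ugt2b37, had large changes on the log2 scale and the largest standard errors of the UGT genes. Ugt2b38 had signals of 213, 266 and 259 after HP pregnancy, 137, 314 and 132 after HP lactation and 81.4, 161 and 236 in control at day 150, against 38.7, 35.6 and 35.2 after HP pregnancy, 34, 20.1 and 43.1 after HP lactation and 43.8, 39.1 and 38.2 in control at day 21. No overlap of the days was seen in any diet. All its day 21 group means were under the filter signal of 57.5, so this gene entered the test only through its day 150 arrays and had to differ between days. Its changes were 2.75, 2.53 and 1.85 (SE 0.40). Without it, the UGT calls number 4 of 9 after HP pregnancy, 7 of 9 after HP lactation and 3 of 9 in control. Ugt2b37 had signals of 909.6, 995 and 675 after HP pregnancy, 524, 1194 and 397 after HP lactation and 209, 401 and 2878 in control at day 150, against 334, 389 and 389 after HP pregnancy, 61.1, 199 and 62.5 after HP lactation and 280.4, 136 and 206 in control at day 21. In both HP groups the days were separate, and 2 of the HP lactation arrays of day 21 held the lowest signals. It was called after HP lactation (2.78, SE 0.66, limma adjusted p = 0.00486). In control, 1 day 150 array stood far above the other 2 and the days overlapped, with a change of 1.65 and an adjusted p of 0.0937, and after HP pregnancy the change was 1.20 (adjusted p = 0.204).

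**Figure D2:**
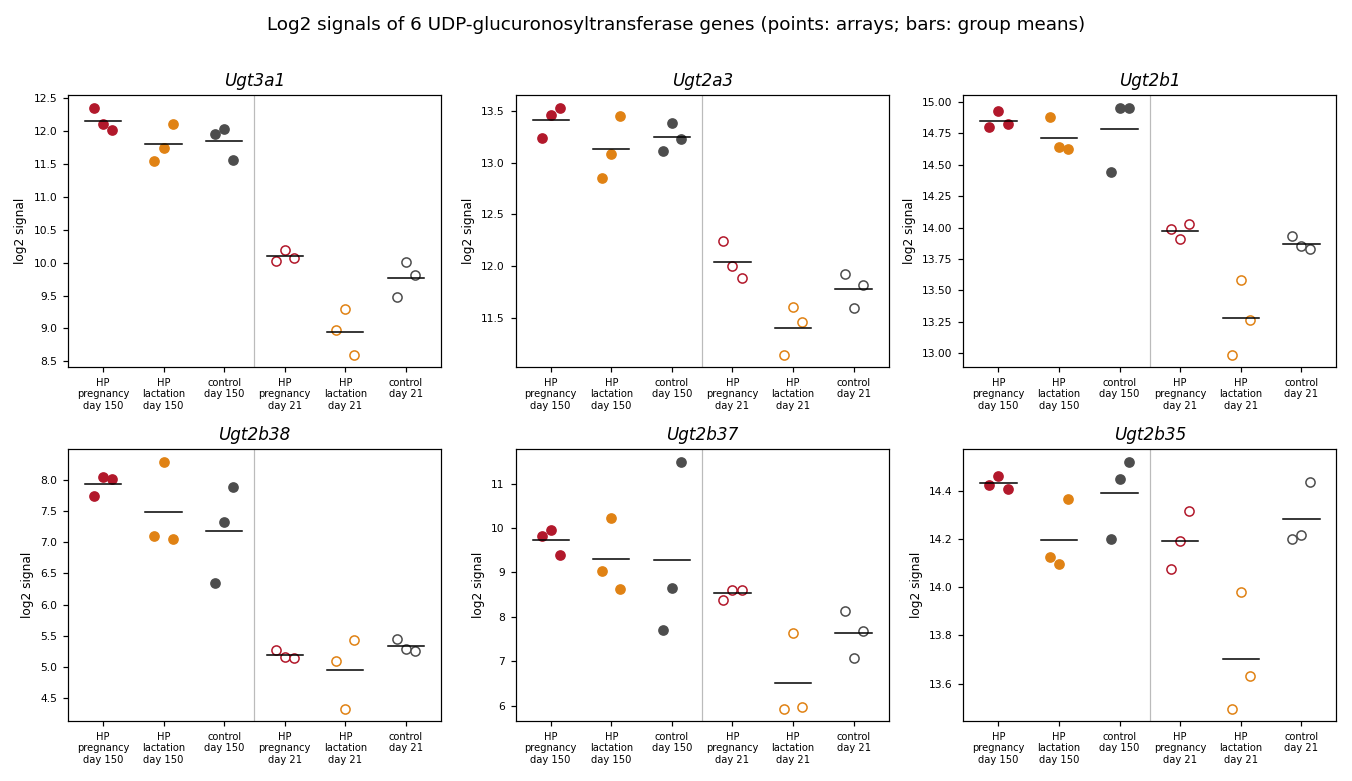
Log2 signals of 6 UGT genes on the 18 arrays, with day 150 groups (filled points) left of day 21 groups (open points) in each panel; points are arrays and bars are group means. The day 150 arrays of Ugt3a1, Ugt2a3 and Ugt2b1 lie above the day 21 arrays of the same diet, and the 3 HP lactation arrays of day 21 lie lowest for Ugt3a1 and Ugt2b1.

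The bright Ugt2b genes and Ugt3a2 changed less. Ugt2b5 had signals of 28043, 30962 and 34919 after HP pregnancy, 38291, 27636 and 27062 after HP lactation and 28307, 35718 and 37092 in control at day 150, against 26516, 25763 and 26314 after HP pregnancy, 18560.2, 24202 and 17355 after HP lactation and 26661, 29282 and 26499.9 in control at day 21. The days were separate in both HP groups and overlapped in control. Ugt2b5 was called after HP lactation (0.63, SE 0.15, limma adjusted p = 0.00427) and gave 0.25 after HP pregnancy and 0.29 in control. Ugt2b35 had signals of 21996, 22567 and 21719 after HP pregnancy, 17858, 17513 and 21095 after HP lactation and 18846, 22361 and 23505 in control at day 150, against 17249, 18689 and 20412 after HP pregnancy, 11556, 16176 and 12694 after HP lactation and 18814, 19037 and 22193 in control at day 21. Its day 21 arrays were lowest after HP lactation, the diet in which it was called (0.49, SE 0.13, limma adjusted p = 0.00843), beside 0.24 after HP pregnancy and 0.11 in control. Ugt2b34 had signals of 16534, 17384 and 15934 after HP pregnancy, 13866, 13586 and 14332 after HP lactation and 14594, 15458 and 15724 in control at day 150, against 13254, 12763 and 13623 after HP pregnancy, 9755, 14073 and 10709.6 after HP lactation and 13639.8, 12583 and 12786 in control at day 21. Day 150 was higher without overlap after HP pregnancy and in control, while 1 HP lactation array of day 21 lay among those of day 150. It was called after HP pregnancy alone (0.33, SE 0.11, limma adjusted p = 0.0373), with 0.29 after HP lactation and 0.23 in control. A further Ugt2b34 probe set gave 0.29, 0.25 and 0.19. Ugt3a2 had signals of 12065, 13983 and 13171 after HP pregnancy, 16561, 13669.5 and 14163 after HP lactation and 14400.4, 14827 and 16678 in control at day 150, against 11661, 12368 and 12695 after HP pregnancy, 11838, 12382 and 9918 after HP lactation and 13052, 15205 and 13786 in control at day 21. The days overlapped after HP pregnancy and in control, and Ugt3a2 was called after HP lactation (0.38, SE 0.11, limma adjusted p = 0.0173). Ugt2b36 was called in no diet, with changes of 0.38, 0.29 and 0.32.

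How firmly these rises held with 1 array left out differed between genes. Ugt3a1, Ugt2a3 and Ugt2b1 stayed called in all 3 diets whichever of the 6 compared arrays was left out, as did Ugt2b5 and Ugt2b37 after HP lactation. Ugt2b35 had an adjusted p of 0.0503 without HP lactation day 21 replicate 1. Ugt3a2 lost its call without HP lactation day 21 replicate 3 (adjusted p = 0.0855) or day 150 replicate 4 (0.0735), the array with Xist signal. Ugt2b34 lost its call without any 1 of the 6 arrays, at adjusted p between 0.0541 and 0.125. With the Gapdh 3'/5' ratio as a covariate, which nearly repeats the split by day, 0, 1 and 1 of the 10 UGT genes were called in the 3 diets, and 9, 9 and 10 still had positive changes. No GST gene was called in that fit.

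The probe sets shared by several UGT genes were called in no comparison. The 3 probe sets that name 8 Ugt1a symbols together, with mean signals of 18599, 23425 and 15026, changed by -0.26 to 0.26 between days over the 3 diets, and their lowest limma adjusted p in any comparison, adjusted over 22519 probe sets, was 0.0992. The Ugt1a enzymes, which include the bilirubin-conjugating form, share their last exons, and such probe sets cannot separate them. The probe set shared by Ugt2a1 and Ugt2a2, with a mean signal of 124, changed by 0.23, 0.64 and 0.30 between days (lowest adjusted p 0.193).

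The GST genes moved in both directions with age, more of them downward. Of 19 tested GST genes, 7 fell and 1 rose at day 150 after HP pregnancy, 4 fell and 1 rose after HP lactation, and 1 fell and 0 rose in control. Of all genes tested, 11.5%, 11.6% and 8.08% were called lower at day 150 in these diets. In each diet 6 of the 7 mu genes had a negative change, the exception being Gstm6, and 4, 3 and 1 of them fell. The mu family's medians were -0.53, -0.38 and -0.21. Without control day 21 replicate 2, the array with Xist signal, the median over all 19 GST genes in control was 0.027 in place of -0.11, 4 rather than 6 of the 7 mu genes had a negative change, and no GST gene was called there.

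Gstm3, a mu class gene known in mouse as a target of NRF2, had signals of 659.5, 646 and 955 after HP pregnancy, 491, 362 and 1786 after HP lactation and 2544, 847 and 3091 in control at day 150, against 4814, 3554 and 6336 after HP pregnancy, 5449, 7586 and 5767 after HP lactation and 4166, 7044 and 6455 in control at day 21. The highest day 150 array lay below the lowest day 21 array in each diet. The day 150 arrays were spread widely within the groups, with 1 control array far below the other 2 and 1 HP lactation array far above the other 2. The Gstm3 changes were -2.69, -3.18 and -1.61 after HP pregnancy, after HP lactation and in control (SE 0.47; limma adjusted p = 0.000563, 9.71e-05 and 0.0249). A dimmer Gstm3 probe set, with a mean of 235, gave -3.37, -4.89 and -1.77 (SE 0.71). The control call was lost without control day 21 replicate 2 (adjusted p = 0.09), without replicate 3 of that group (0.0734) and without control day 150 replicate 2 (0.154). With the Gapdh ratio as a covariate the 3 changes were 0.42, 0.051 and 0.47, opposite in sign to the values above.

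The neighbours of Gstm3 changed by less. Gstm1, the main mu class enzyme of mouse liver, had signals of 11857, 9449 and 12847 after HP pregnancy, 11737, 10256 and 12172 after HP lactation and 14620.5, 12413 and 18213 in control at day 150, against 15126, 15304 and 18873 after HP pregnancy, 15435, 20064 and 14028 after HP lactation and 16097, 27009 and 18492 in control at day 21. The days were separate in both HP groups and overlapped in control. Gstm1 fell by 0.53 after HP pregnancy and by 0.52 after HP lactation on the log2 scale (SE 0.19; limma adjusted p = 0.0442 and 0.0458), beside a change of -0.43 in control. Each Gstm1 call was lost in 5 of 6 fits with 1 array left out. In those fits the adjusted p reached 0.191 after HP pregnancy (without day 150 replicate 2) and 0.19 after HP lactation (without day 21 replicate 2). The other 3 Gstm1 probe sets gave negative changes in every diet, from -1.33 to -0.22.

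Gstm7 had signals of 1465, 1148 and 1242 after HP pregnancy, 1420.5, 1431 and 2066 after HP lactation and 1865, 1768 and 1917 in control at day 150, against 1609.8, 1981 and 2047 after HP pregnancy, 1809, 2448 and 2072 after HP lactation and 2148, 2122 and 2167 in control at day 21. In control its arrays were tight at both days and did not overlap, and its lowest group mean was that of day 150 after HP pregnancy, whose arrays overlapped with those after HP lactation. Gstm7 fell after HP pregnancy (-0.55, SE 0.15, limma adjusted p = 0.0136), with -0.38 after HP lactation and -0.21 in control. Gstm4 had signals of 2076, 1898 and 2305 after HP pregnancy, 2125, 1789.8 and 3294 after HP lactation and 3027, 2746 and 2852 in control at day 150, against 3450.2, 2688 and 3638 after HP pregnancy, 2818, 3876 and 2319.6 after HP lactation and 3072, 4851 and 3257 in control at day 21. The days were separate after HP pregnancy and in control and overlapped after HP lactation. It fell after HP pregnancy (-0.63, SE 0.22, limma adjusted p = 0.0414) and gave -0.34 and -0.34 in the other diets. A further, dim Gstm7 probe set (mean 72.9) gave 0.27, 0.80 and -0.072 with an SE of 0.40. Gstm2 had signals of 1340, 739 and 1017 after HP pregnancy, 1049.7, 791 and 1080.3 after HP lactation and 1702, 1043 and 1376 in control at day 150, against 1125, 1304 and 1366 after HP pregnancy, 1463, 2602 and 1915 after HP lactation and 1232, 1665 and 1359 in control at day 21. Its day 21 mean was highest after HP lactation, the only diet in which the days did not overlap, and there it fell (-1.01, SE 0.23, limma adjusted p = 0.00355), beside -0.33 after HP pregnancy and -0.063 in control. Gstm5 gave -0.42, -0.10 and -0.053 and Gstm6 gave 0.12, 0.42 and 0.37, with no call. The Gstm2 call was kept whichever array was left out. The Gstm7 call was lost without HP pregnancy day 21 replicate 2 (adjusted p = 0.0591) or 3 (0.0693) or day 150 replicate 2 (0.0687), and the Gstm4 call in 5 of 6 such fits (adjusted p up to 0.148).

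**Figure D3:**
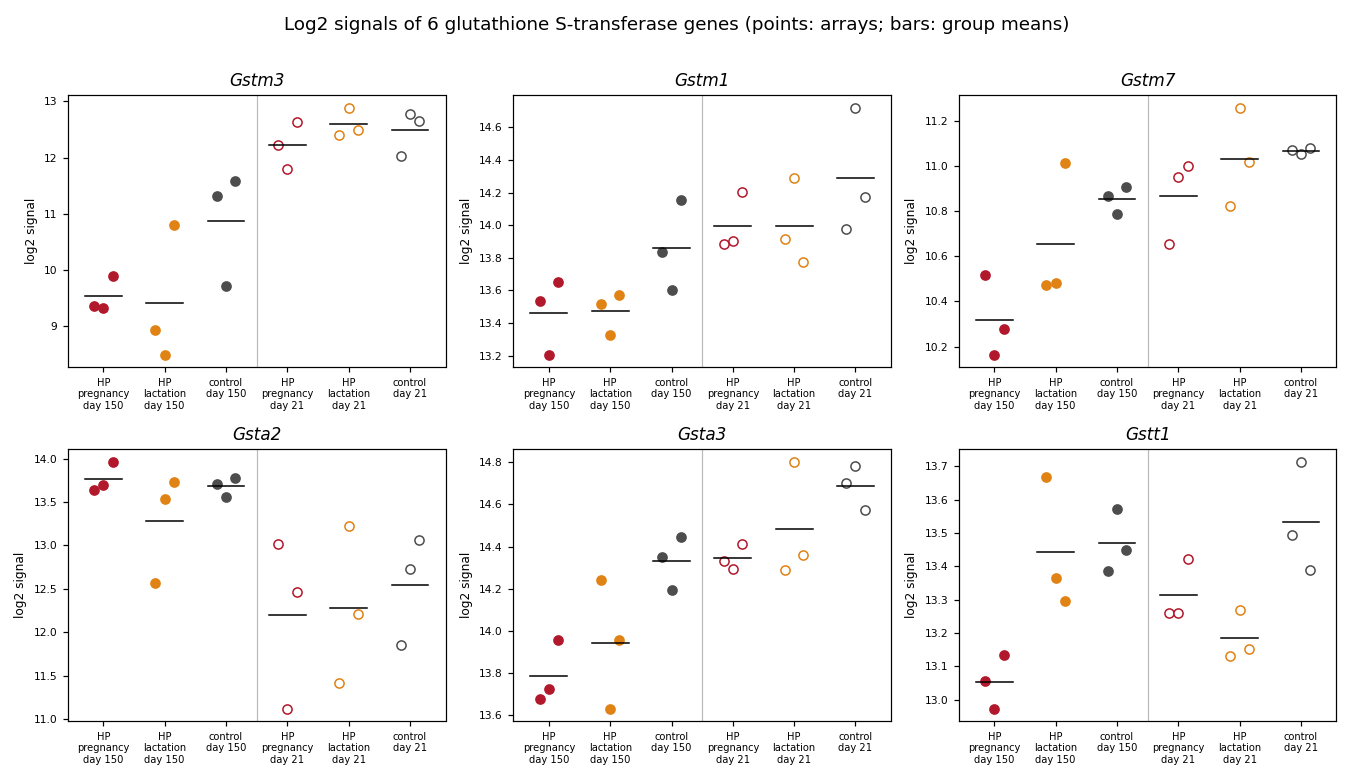
Log2 signals of 6 GST genes on the 18 arrays, with day 150 groups (filled points) left of day 21 groups (open points) in each panel; points are arrays and bars are group means. Gstm3 is lower at day 150 in every diet, Gsta2 has a higher group mean at day 150, and Gstt1 has its lowest mean in the HP pregnancy group of day 150.

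The alpha family went both ways. Gsta2, an inducible alpha enzyme, had signals of 12797, 13289 and 15979.6 after HP pregnancy, 6069, 11857 and 13600.5 after HP lactation and 13395, 12035 and 13982 in control at day 150, against 8302, 2225 and 5648 after HP pregnancy, 2731, 9537 and 4739 after HP lactation and 3709, 6802 and 8524 in control at day 21. Day 21 arrays varied more than 3-fold between pools within HP pregnancy and HP lactation, and HP lactation day 150 replicate 4 lay below 1 of its day 21 arrays. Gsta2 rose after HP pregnancy (1.57, SE 0.44, limma adjusted p = 0.0146), and gave 1.0 after HP lactation (adjusted p = 0.104) and 1.13 in control (0.0833). The call was lost without HP pregnancy day 21 replicate 2, the lowest array (adjusted p = 0.105). A probe set shared by Gsta1, Gsta2 and Gm3776 gave 1.24, 0.66 and 0.92 in the 3 diets, with no call. Gsta4, which conjugates the lipid peroxidation product 4-hydroxynonenal, gave 0.53, 0.49 and 0.48, also with no call.

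Gsta3, the mouse alpha enzyme that detoxifies aflatoxin epoxide, had signals of 13102, 13524 and 15921 after HP pregnancy, 19353, 12687 and 15900 after HP lactation and 20876, 18754 and 22312 in control at day 150, against 20652, 20077 and 21817 after HP pregnancy, 19989, 28586 and 21038 after HP lactation and 26619.8, 28191 and 24378 in control at day 21. Its days did not overlap in any diet, with day 150 lower. It fell after HP pregnancy (-0.56, SE 0.15, limma adjusted p = 0.0102) and after HP lactation (-0.54, adjusted p = 0.0118), and gave -0.36 in control (adjusted p = 0.105). A further Gsta3 probe set, with a mean signal of 7938, did not show this: its changes were 0.035, 0.066 and 0.089 (SE 0.15). The fall of Gsta3 thus depended on the probe set read. Its HP lactation call was also lost without day 21 replicate 2 (adjusted p = 0.0688) or day 150 replicate 5 (0.0745).

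A further 3 GST genes were called with age. Gstp3, a pi class neighbour of Gstp1, had signals of 14931, 12961 and 17497 after HP pregnancy, 13652, 15595 and 17584 after HP lactation and 15887, 17001 and 11666 in control at day 150, against 9906, 11212 and 9508 after HP pregnancy, 9329, 9100 and 12686 after HP lactation and 15365, 17993 and 9298 in control at day 21. Day 150 lay above day 21 in both HP groups. It rose after HP lactation (0.60, SE 0.20, limma adjusted p = 0.0377), with 0.56 after HP pregnancy (adjusted p = 0.054) and 0.10 in control, where the arrays overlapped. Gstk1, the kappa enzyme of mitochondria and peroxisomes, had signals of 6909.5, 8533 and 8200.4 after HP pregnancy, 7439, 6836 and 8674 after HP lactation and 9333, 7664 and 8954 in control at day 150, against 10659, 10357 and 10712 after HP pregnancy, 7700.4, 10998 and 7529.7 after HP lactation and 9869.7, 11999 and 10365 in control at day 21. Day 150 lay below day 21 without overlap after HP pregnancy and in control. It fell after HP pregnancy (-0.43, SE 0.14, limma adjusted p = 0.0343) and gave -0.18 and -0.31 in the other diets. Mgst3, a microsomal enzyme that can also make leukotriene C4, had signals of 919, 805 and 969 after HP pregnancy, 968, 1010.1 and 1452 after HP lactation and 1459, 979 and 1148 in control at day 150, against 2118, 1267 and 1377 after HP pregnancy, 1585, 1449 and 1994 after HP lactation and 1443, 2430.1 and 1422 in control at day 21. Only after HP pregnancy were the days separate. After HP pregnancy it fell (-0.79, SE 0.23, limma adjusted p = 0.0178), and in the other diets it gave -0.56 and -0.53. Gstp3 lost its call in 4 of 6 fits with 1 array left out (adjusted p up to 0.122) and Gstk1 in 5 of 6 (up to 0.143). Mgst3 lost it without HP pregnancy day 21 replicate 1 (0.0943) or day 150 replicate 2 (0.0719).

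The remaining GST families gave no call with age. Gstt1, the theta enzyme that acts on small halogenated compounds, had signals of 8515, 8039 and 8984 after HP pregnancy, 13002, 10556 and 10062 after HP lactation and 10700.5, 12179 and 11176 in control at day 150, against 9818, 9799 and 10972 after HP pregnancy, 8966, 9878 and 9099 after HP lactation and 11538, 13437 and 10730.4 in control at day 21. After HP pregnancy the day 150 arrays lay below the day 21 arrays (-0.26) and after HP lactation above them (0.26), with adjusted p of 0.106 and 0.101 in the limma test, and in control the days overlapped (-0.064). Gsto1, the omega enzyme that reduces dehydroascorbate, had signals of 5528, 5697 and 6440.2 after HP pregnancy, 5386, 5986 and 5881 after HP lactation and 6026, 5933 and 5593 in control at day 150, against 8211, 7612 and 7220.5 after HP pregnancy, 6725, 6464 and 5722 after HP lactation and 5010, 8938 and 6917 in control at day 21. The days overlapped except after HP pregnancy. Gsto1 gave -0.38, -0.13 and -0.21, while a further Gsto1 probe set of similar brightness (mean 5554) gave -1.79, -1.20 and -1.38 (SE 0.18). The 2 probe sets of Gsto1 thus differed in the size of the change by over 1 log2 unit in each diet. Mgst1 and Gstp1 gave small positive changes, from 0.062 to 0.40, and Gstt2 gave -0.43, -0.51 and -0.42. The theta gene Gstt3 gave 0.17, -0.57 and -0.11 (SE 0.33), with overlapping days in each diet.

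Genes that supply or work beside the transferases also differed between days. Their counts stand beside 12.1%, 14.1% and 9.7% of all genes called higher and 11.5%, 11.6% and 8.08% called lower in the 3 diets, and in lists of 6 to 17 genes 1 or 2 calls in a direction are near those shares. Ugdh, which makes UDP-glucuronic acid, rose in all 3 diets, with means of 12099 at day 150 against 4870.3 at day 21 after HP pregnancy, 10026 against 3847 after HP lactation and 9754 against 5476 in control (log2 changes 1.31, 1.38 and 0.83). Of the 6 tested genes that supply UDP-glucuronic acid or remove glucuronides, it was the only one that rose in any diet, and 2, 1 and 1 fell. Of 15 tested genes of glutathione supply and recycling, 4 fell in each diet and 1, 2 and 0 rose. Among them Ggct, which breaks down gamma-glutamyl peptides, fell by 2.40, 2.16 and 2.0 on the log2 scale (limma adjusted p = 1.46e-08, 1.57e-08 and 1.38e-07). Gss, glutathione synthetase, fell in all 3 diets as well, by 0.66 after HP lactation.

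Of 16 tested NRF2 targets outside the transferases, 7 fell and 2 rose after HP pregnancy, 8 fell and 1 rose after HP lactation, and 7 fell and 1 rose in control. The carbonyl reductase Cbr1 fell by 2.0, 2.0 and 1.93 in the 3 diets. The medians of that list were -0.38, -0.59 and -0.51. Among 10 tested xenobiotic sensors and partners, 2 rose in each diet and 3, 3 and 2 fell. Hnf4a, a hepatocyte transcription factor, rose by 0.52, 0.49 and 0.43. Among 17 tested targets of the sensors CAR, PXR and AHR, Ces2a, a carboxylesterase, rose by 0.89, 1.04 and 0.81 and the cytochrome Cyp2b9 changed by -3.99, -5.29 and -2.68. In this list 2, 4 and 3 genes rose and 2, 4 and 2 fell. Of 6 other glutathione-dependent enzymes, 1, 1 and 0 rose and 1 fell in each diet, and of 7 conjugate exporters 0, 2 and 2 rose and 1, 2 and 1 fell.

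Markers of the cell types are given beside these changes. Of 7 hepatocyte markers, 1 rose in each diet and 7, 7 and 6 had positive changes (medians 0.23, 0.38 and 0.11). Summed macrophage marker signals were 14734 to 22367 over the day 150 arrays, against 9902 to 17671 over the day 21 arrays, and 2, 4 and 2 of these 8 markers rose while 1, 1 and 0 fell (medians 0.11, 0.59 and 0.33). Of 7 stellate cell markers, 2 fell in each diet and none rose (medians -0.26, -0.23 and -0.19). Of 7 endothelial markers, 1 fell in each diet and 0, 1 and 0 rose. Their part in the transferase changes was not tested.

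The diet comparisons ask how a maternal HP diet in pregnancy or in lactation altered the offspring's transferases, at weaning and in adulthood. No member was called against control of the same day in any of the 4 comparisons. At day 150 the limma test called 0 of 29 after HP pregnancy (2.63% of all genes tested, 1.52% higher and 1.11% lower) and 0 of 29 after HP lactation (0.00908%). At day 21 it called 0 of 29 after HP pregnancy (0% of all genes) and 0 of 29 after HP lactation (0.172%, of which 0.0454% higher and 0.127% lower). An unadjusted p under 0.05 was found for 7 and 4 members at day 150 and for 3 and 9 at day 21, after HP pregnancy and HP lactation in that order, where 20%, 7.72%, 9.98% and 14.3% of all genes had one. Arrays of the HP group and control did not overlap for 10 and 2 members at day 150 (27.9% and 13.7% of all genes) and for 7 and 9 at day 21 (18.2% and 16.1%). On simulated data of this size for HP lactation against control at day 21, 15.6% of genes changed by 0.5 on the log2 scale and 72% of those changed by 1 were recovered. The changed genes there were drawn at random from all tested genes and outnumbered the genes called in the real comparison. Recovery of the members, most of them bright, may therefore differ, and changes as small as most of those below could be missed.

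At day 21 most member signals were lower after an HP diet without passing the test. After HP lactation 25 of 29 changes were negative (median -0.30), among them those of all 10 UGT genes (median -0.43). After HP pregnancy 23 of 29 were negative (median -0.17), 18 of 19 among the GST genes and 5 of 10 among the UGT genes. Both comparisons share the control arrays. Bright genes in general had lower signals there: in the top 10% by signal the median change was -0.12 after HP pregnancy and -0.21 after HP lactation, beside 0.0087 and 0.0047 over all genes. Hepatocyte markers gave medians of -0.28 and -0.33. The 99th percentile of signal was 15701 to 17018 after HP pregnancy, 14971 to 17741 after HP lactation and 17713 to 19913 in control. Without the control array with Xist signal, 14 and 12 of 19 GST changes were negative (medians -0.12 and -0.11), against 18 and 15 with it, and the UGT median after HP lactation was -0.44.

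Nearest to a call at day 21 were 3 UGT genes after HP lactation. For Ugt2b35, whose HP lactation arrays all lay below the control arrays, the change after HP lactation was -0.58 (95% interval -0.85 to -0.32, limma adjusted p = 0.0728). Ugt3a1 gave -0.82 (-1.21 to -0.43, adjusted p = 0.0813), also with no overlap of arrays. Ugt2b1 gave -0.59 (-0.89 to -0.29, adjusted p = 0.104). After HP pregnancy the same genes gave -0.091, 0.32 and 0.11. Without HP lactation day 21 replicate 2, all 3 were called lower after HP lactation (limma adjusted p = 0.0148, 0.0284 and 0.0275 for Ugt2b35, Ugt3a1 and Ugt2b1). That array was the highest of its group for these 3 genes, and leaving it out widens the difference by itself. Over the 6 fits with 1 compared array left out, 0 to 3 UGT genes were called lower. With every array scaled to the same 75th percentile, Ugt2b35 was called lower (-0.71, limma adjusted p = 0.0427). That scaling moved the median of all genes to -0.12.

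The GST genes after HP diets at day 21 included Gstt1, at -0.35 after HP lactation (limma adjusted p = 0.198) and -0.22 after HP pregnancy. Gstp1 gave -0.34 after HP pregnancy and -0.41 after HP lactation, and Mgst1 gave -0.30 and -0.30, with adjusted p between 0.254 and 0.54 by limma. Gstm2 was the member with the most positive change after HP lactation, at 0.46 (adjusted p = 0.367).

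**Figure D4:**
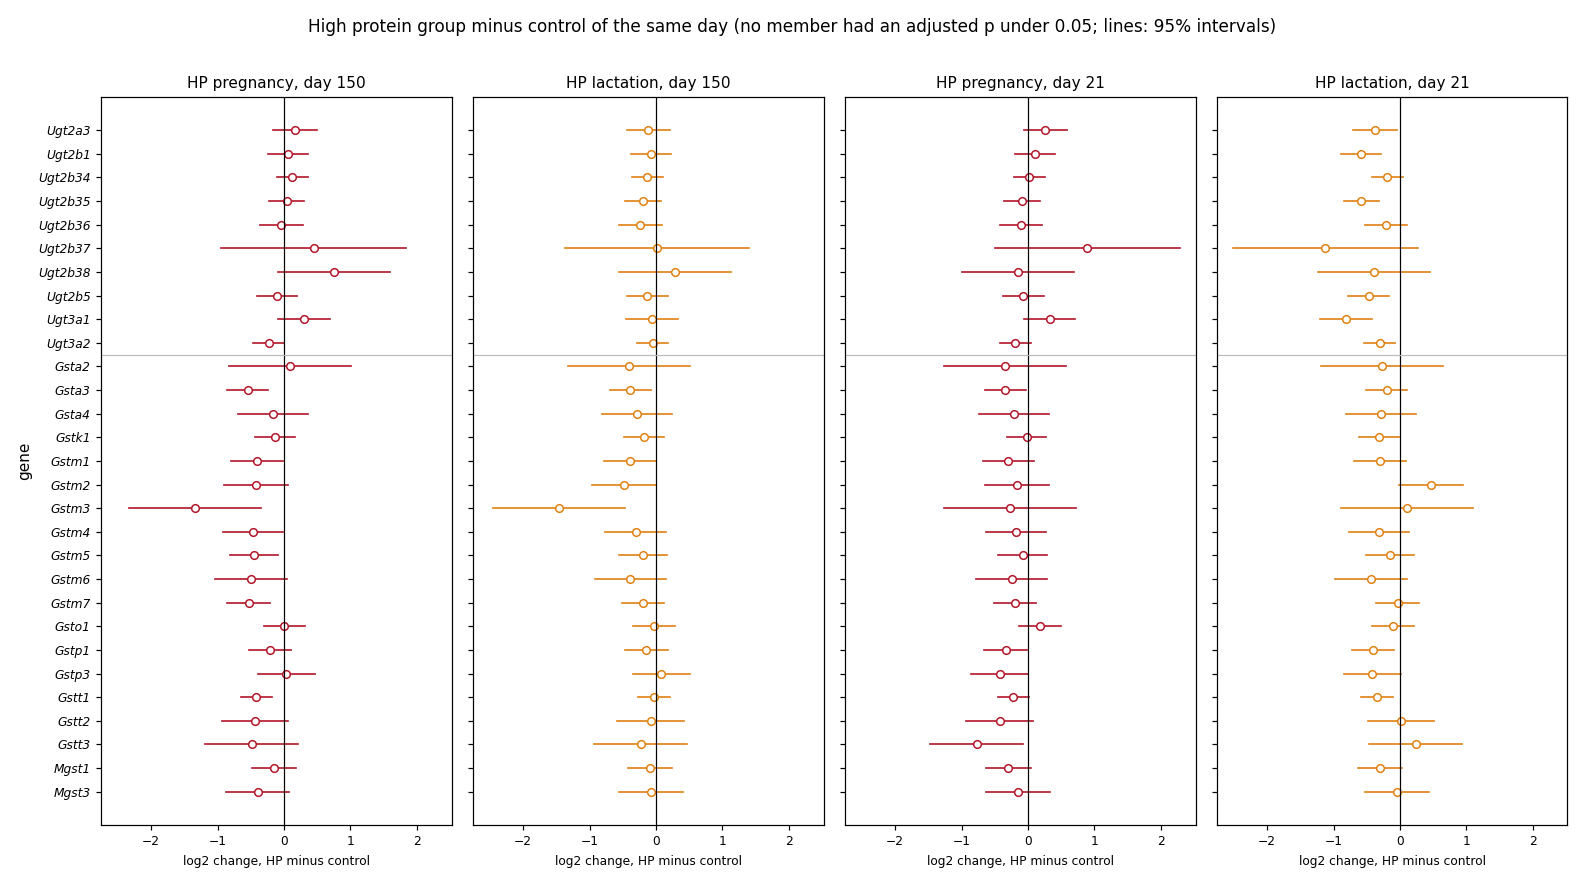
Log2 change of each of the 29 tested genes, HP group minus control of the same day, at day 150 (left 2 panels) and day 21 (right 2 panels), with 95% intervals as lines; no point had a limma adjusted p under 0.05. At day 21 after HP lactation all 10 UGT genes, above the grey line, lie left of 0, and at day 150 after HP pregnancy all 7 Gstm genes do.

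HP pregnancy and HP lactation offspring were also set against each other. At day 21 all 10 UGT genes had higher means after HP pregnancy than after HP lactation (median 0.45), and the GST genes showed no common direction (10 positive, 9 negative). Markers of other cell types had higher values after HP pregnancy too, with no call: 6 of 8 macrophage markers (median 0.48), 6 of 7 stellate cell markers (0.42) and 6 of 7 endothelial markers (0.29), beside 5 of 7 hepatocyte markers (0.0032). Their summed signals were 13248 to 17671 after HP pregnancy against 9902 to 14135 after HP lactation for macrophages, 26517 to 28073 against 22255 to 23849 for stellate cells and 13114 to 16096 against 10443 to 11253 for endothelial cells. The stellate and endothelial sums did not overlap, and their part in the UGT difference was not tested. The limma test called 2 of 29 members, both higher (6.9%, beside 0.899% of all genes called higher and 1.28% called in either direction). Ugt3a1 had signals of 1038, 1174 and 1079.8 after HP pregnancy, against 501, 626 and 389 after HP lactation, a change of 1.14 (SE 0.19, limma adjusted p = 0.00424). Its control arrays, at 716, 1037 and 902, lay between the HP groups. Ugt2b1 had signals of 16256, 15409.5 and 16713 after HP pregnancy, against 8121, 12244 and 9853 after HP lactation, a change of 0.70 (SE 0.14, limma adjusted p = 0.0225). The arrays of the 2 groups did not overlap for either gene, nor for 7 other members (20.9% of all genes). Unadjusted p was under 0.05 for 8 members (14.9% of all genes).

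The Ugt3a1 call was kept whichever of the 6 arrays was left out (adjusted p 0.00216 to 0.0311), and its further probe set gave 0.84. The Ugt2b1 call was lost without HP pregnancy day 21 replicate 1 (0.0614), 2 (0.0732) or 3 (0.0867) and without HP lactation day 21 replicate 1 (0.144). Ugt2a3 (0.64, adjusted p = 0.05 after rounding and above the threshold before it) and Ugt2b35 (0.49, adjusted p = 0.0628) were next in the limma test and not called. With quantile normalization 4 members were called, also Ugt2a3 and Ugt2b5. Without HP lactation day 21 replicate 2, the highest of its group for both genes, Ugt2a3 and Ugt2b35 joined the calls. Without replicate 3, Ugt2a3 and the theta gene Gstt3 joined them, with Gstt3 lower after HP pregnancy (-1.32). Ugt2b37 had the largest change of the UGT genes, 2.02, with a wide interval (0.63 to 3.41) and an adjusted p of 0.143. Among exporters, Abcc4, which carries glucuronides and other conjugates to the blood, went the other way: its mean was 169.8 after HP pregnancy against 579.7 after HP lactation (-1.77, limma adjusted p = 0.00145), and it was higher after HP lactation than in control (1.55, adjusted p = 0.0103). Abcc4 is on the lists of exporters and of NRF2 targets, and no other gene of the 7 lists was called in a diet comparison at day 21.

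At day 150 most GST genes had lower means after HP pregnancy, again without a call. Of 19 GST changes 16 were negative (median -0.41), including all 7 Gstm and all 3 tested Gstt genes, while 7 of 10 UGT changes were positive (median 0.094). Nearest to a call were Gsta3 (-0.54, 95% interval -0.85 to -0.23, limma adjusted p = 0.0561), Gstt1 (-0.41, -0.65 to -0.18, 0.0572) and Gstm7 (-0.53, -0.85 to -0.21, 0.0635). All 3 HP pregnancy arrays lay below all 3 control arrays for each of these genes. Gstm3 had the most negative change, -1.34, with overlapping arrays and an adjusted p of 0.121. The further Gsta3 probe set gave -0.28. Other settings called some members: 5 fell with only the 6 compared arrays in the fit, 3 with the filter at the 70th percentile, and 2 each with quantile normalization and without the arrays with Xist signal, which are not among the arrays compared. With quantile normalization, and without the Xist arrays, these were Gsta3 and Gstt1. No share of all genes under these settings stands beside these counts, so they do not set the members apart. Without the Xist arrays more of all genes were called as well. The top 10% of genes by signal had a median of -0.086, and 7 of 7 hepatocyte markers were negative (median -0.11).

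After HP lactation at day 150, 26 of 29 changes were negative (median -0.15), all 7 Gstm genes among them (median -0.39). The top 10% of genes by signal had a median of -0.073 in this comparison, beside 0.0024 over all genes. Gstm3 gave -1.46 (95% interval -2.46 to -0.47, limma adjusted p = 0.482), the lowest adjusted p of the family. Both HP groups share the control arrays here, so their like direction is not independent. Among the 10 UGT genes 8 changes were negative (median -0.092). Of the 3 nearest to a call at day 21 after HP lactation, Ugt2b35 gave -0.20 at day 150 (-0.46 to 0.071), Ugt3a1 -0.052 (-0.44 to 0.34) and Ugt2b1 -0.068 (-0.37 to 0.23). Between HP pregnancy and HP lactation at day 150 no member was called (0.717% of all genes), 3 had an unadjusted p under 0.05 (17.4% of all genes), and Gstt1, at -0.39, was nearest (limma adjusted p = 0.0896). Of the supply genes, Slc35d1, which carries UDP-glucuronic acid into the endoplasmic reticulum, was lower after HP pregnancy, with a mean of 2138 against 3572 after HP lactation (-0.74, adjusted p = 0.0385 by limma).

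Whether a diet response differed between the days was tested as an interaction. The limma test called 0 of 29 members for HP pregnancy and 0 of 29 for HP lactation, beside 0.0182% of all genes in each, and 0 and 5 members had an unadjusted p under 0.05 (3.87% and 5.1% of all genes). For Ugt3a1 the HP lactation response at day 150 minus that at day 21 was 0.77 on the log2 scale (SE 0.26, limma adjusted p = 0.929), and for Gstm3 it was -1.57 (SE 0.67, adjusted p = 0.929). A difference between the days in these responses was therefore not shown for any member, Ugt3a1 and Ugt2b1 after HP lactation included.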

How the data were processed

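The deposited values are linear signal intensities from 18 Mouse Genome 430 2.0 arrays, made by the authors with MAS5 in GCOS 1.4, per the submitters' processing notes, and they have a 2% trimmed mean of 500.004 to 500.005 on each array. Detection calls and scan dates were not used here. Signals were put on the log2 scale, with 0 added before. Of 45101 probe sets, 64 were controls, 34945 named 1 gene, 932 several and 9160 none. Probe sets under the median of the non-control probe sets (log2 5.85) were left out, and each gene was read from its probe set with the highest mean signal, for 11018 genes. The means of 6 groups were fitted with limma 3.58.1 in R 4.3.3 (eBayes with trend, two-sided, Benjamini-Hochberg adjustment over all genes, threshold 0.05), with 12 residual degrees of freedom, for 11 comparisons. Values per array are given for members called in any comparison and for the highest member of each family, and up to 3 other genes per list could be named by smallest p. The members and lists were chosen with earlier results of these data known. The fit was tested on simulated data. The alternatives tried were the filter, the normalization, the added constant, the probe set, the variance prior, the arrays in the fit and the replicate number. Leaving out both Xist arrays and the Gapdh covariate were added after the data were seen.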

Additional observations from a re-analysis of the deposited data

How the results depend on the processing

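Among the 29 tested genes, no member was called in HP pregnancy against control at day 21, HP lactation against control at day 150 or either interaction under any setting run. For HP lactation against control at day 21, 1 member was called with equal 75th percentiles, and 0 to 3 with 1 array left out, the highest count being without HP lactation day 21 replicate 2. For HP pregnancy against control at day 150, where 0 were called, 3 were called with the filter at the 70th percentile, 2 with quantile normalization, 2 without the arrays with Xist signal and 5 with only the compared arrays. Over all genes that comparison called 290, against 146 without a filter, 72 without the variance trend, 19 with the mean of a gene's probe sets, 5 with the Gapdh covariate, 591 without the Xist arrays and 2 to 162 with 1 array left out. For HP pregnancy against HP lactation, the 2 members called at day 21 became 4 with quantile normalization, 1 without the trend, 1 with only the compared arrays and 1 to 4 with 1 array left out, and at day 150 quantile normalization called 1. Where no count over all genes is given for a setting, the member count stands without its share and does not set the members apart. The cause of these shifts was not tested.

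The 13 members called with age after HP pregnancy became 8 to 10 with 1 array left out, and the 13 after HP lactation became 8 with only the compared arrays and 11 to 14 with 1 array left out. With the Gapdh ratio as a covariate the age counts were 0 after HP pregnancy, 1 after HP lactation and 1 in control, and 2, 17 and 52 over all genes, against 2602, 2830 and 1959. Changes with the opposite sign in that fit included Gstm3 at 0.42 after HP pregnancy, 0.051 after HP lactation and 0.47 in control. Gstk1 at 0.049 after HP pregnancy and Gstp3 at -0.38 after HP lactation were others. The list is not complete, as a UGT gene also lost its positive change after HP pregnancy and after HP lactation. Because the ratio is separate between days, that fit leaves little of the age difference to estimate. Same-numbered arrays did not deviate together (30 pairs, r from -0.11 to 0.10, median -0.025, 1 above 0.1). No pairing by replicate number was thus seen, though a weak one could be missed. With a replicate block over the 15 arrays that carry numbers 1 to 3, 5 members were called with age in control, 11 after HP pregnancy and 2 between the HP groups at day 21, and 0 in the diet comparisons with control. With 3 arrays a group the median standard error was 0.189 on the log2 scale.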
